A study of Mus musculus with 6 samples.

Results

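Sox10, Erbb3, Fabp7, Egfl8, Cdh19 and S100b are genes used to mark the Schwann cell lineage, and they were chosen by name: all probe sets whose only gene symbol in the platform annotation was one of the 6 were taken. This gave 10 probe sets of the 45101 on the array and 6 of the 18193 genes that a single-gene probe set reads. All 6 genes passed the filter on dim genes and were among the 13645 genes tested. They were measured in tongues of C57BL/6J mouse embryos at embryonic day 14.5, on 6 Affymetrix arrays. The 3 mutants were Tgfbr2 fl/fl; Wnt1-Cre, so that the gene for a receptor of TGF-beta is removed in cells descended from the neural crest. The 3 controls were Tgfbr2 fl/fl with no Cre: both groups carry the floxed alleles, and the titles call the controls wildtype. The series asks which genes depend on this receptor while the tongue muscle forms, since the mutant tongue is abnormally small. The labels name the material tongue in one field and tongue mesenchyme in another, give the sex as not determined, and do not say whether an array holds 1 embryo or how many litters were used, so a p-value here speaks only of the spread between these samples, which may be technical.

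Schwann cells are the glia of peripheral nerves. They arise from the neural crest, travel along growing axons as Schwann cell precursors, become immature Schwann cells, and later either myelinate an axon or stay unmyelinated. Neuregulin on the axon keeps the precursors alive through the receptor pair ErbB2 and ErbB3, and the transcription factor Sox10 is needed for the lineage from its start. Because Wnt1-Cre acts in the neural crest, these glia belong to the cells in which the floxed gene is exposed to Cre, whereas the muscle fibres of the tongue come from mesoderm. The sensory axons that these glia accompany belong to neurons whose cell bodies lie in cranial ganglia outside the tongue.

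Across the series, 292 genes (2.14% of those tested) differed between the genotypes at an adjusted p under 0.05 (limma, Benjamini-Hochberg), 180 higher in the mutants (1.32%) and 112 lower (0.821%). Mutant array 1 stood apart from the other arrays. It correlated with them at 0.966 to 0.978 over the tested genes, and its markers of muscle and epithelium departed most from the controls. The count was 670 without that array and 16 and 19 without control arrays 2 and 3. Tgfbr2 itself read 11.55, 11.82 and 11.80 in the controls and 11.16, 11.79 and 11.69 in the mutants, overlapping values whose difference (-0.18, standard error 0.18, adjusted p = 0.642, limma) does not test the labels, because the sources used here do not say whether any probe lies in the part removed.

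Of the 6 Schwann lineage genes, 5 were higher in every mutant array than in any control array, and 1 of them, Egfl8, passed the test over all genes. Egfl8 rose 1.61-fold. The other 4 with separated groups, Fabp7, Cdh19, S100b and Sox10, had fitted differences of 1.64-, 1.55-, 1.30- and 1.27-fold and did not pass. Erbb3, the neuregulin receptor, had overlapping groups and a small negative difference. Over the tested genes, 13.6% had all mutant arrays above all control arrays, 25.1% had separated groups in either direction, and 9.43% had a positive difference with an unadjusted p under 0.05, as these 5 genes had (7.46% had a negative one). Positive differences of any size made up 53.4%. The median log2 difference of the 6 genes was 0.50, beside 0.02 over all tested genes. The 6 genes were chosen by name with earlier results of these data known, so these counts describe the genes and are not a test of the lineage. In bulk tissue, more cells of a type and more RNA per cell cannot be told apart.

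**Figure D1:**
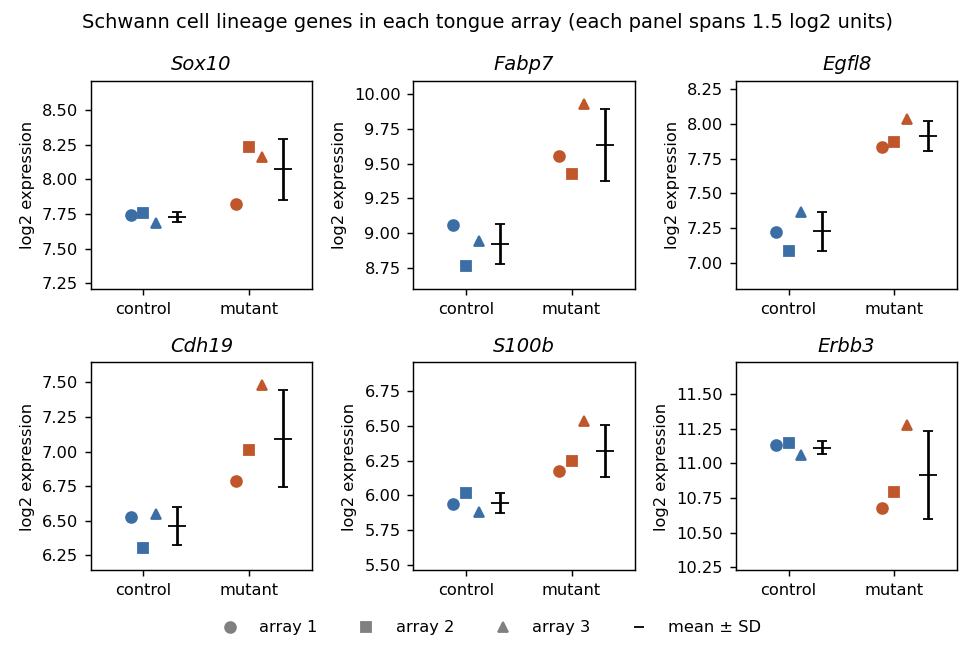
Log2 expression of the 6 genes on each array (blue: control, orange: mutant, marker shape: array number) with the mean and SD of each genotype (n = 3); each panel spans 1.5 log2 units around its own middle. The mutant points of Sox10, Fabp7, Egfl8, Cdh19 and S100b all lie above the control points, and those of Erbb3 lie on both sides.

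Sox10 encodes the HMG-box transcription factor that specifies the glial fate in the neural crest and goes on being needed in Schwann cells. Its brightest probe set read 7.75, 7.76 and 7.69 (log2) in control arrays 1, 2 and 3 and 7.82, 8.23 and 8.16 in mutant arrays 1, 2 and 3. The controls lay close together, and mutant array 1 stood only just above them. The log2 difference was 0.34 (standard error 0.12, adjusted p = 0.224, limma), with a 95% interval from 0.06 to 0.63. Without mutant array 1 it was 0.47 and passed (adjusted p = 0.0187, limma), in a fit where 4.91% of all tested genes passed. With any other array left out Sox10 did not pass. The other Sox10 probe sets differed less, by 0.11 from a control mean of 7.12 and by -0.0045 from a control mean of 5.39, and the mean of the probe sets gave 0.15. The separation of the groups was thus seen on 1 of 3 Sox10 probe sets.

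Erbb3 encodes the neuregulin receptor of Schwann cells, which binds the ligand and signals through its partner ErbB2. It is also made by many epithelia. It read 11.13, 11.15 and 11.06 in the controls and 10.68, 10.79 and 11.28 in the mutants. Mutant arrays 1 and 2 were below all controls and mutant array 3 was above them, so the groups overlapped. The log2 difference was -0.20 (standard error 0.16, adjusted p = 0.562, limma), with a 95% interval from -0.56 to 0.17, and it was -0.08 without mutant array 1. The epithelium markers, given below, had higher summed levels in every mutant array than in any control array. Their part in the Erbb3 values was not tested.

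Within each array, Erbb3 was lower relative to each of the other 5 genes in all mutants than in any control. Relative to Sox10 the log2 ratio of Erbb3 was lower by 0.53, 0.82 and 0.27 in mutant arrays 1, 2 and 3 than the control mean, around which the controls varied with an SD of 0.0079. Relative to Fabp7, Egfl8, Cdh19 and S100b the mean changes of the ratio were -0.91, -0.88, -0.83 and -0.57, and relative to Sox10 it was -0.54. The SD of 0.0079 rests on 3 arrays, and relative to S100b and Egfl8 the control SD was 0.033 and 0.19. The other 5 genes were each already higher in every mutant array, which by itself lowers these ratios. No share of such ratios over all genes was computed. These ratios all share the Erbb3 values and were looked at after the direction of Erbb3 was seen, so they are a description with no test.

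Fabp7 encodes the brain-type fatty acid binding protein, which is abundant in glial precursors, including those of peripheral nerve. It read 9.06, 8.76 and 8.94 in the controls and 9.55, 9.43 and 9.93 in the mutants. Every mutant was above every control, and mutant array 3 was the highest. The log2 difference was 0.72 (standard error 0.15, adjusted p = 0.0621, limma), with a 95% interval from 0.37 to 1.06. With the replicate number as a block it passed (adjusted p = 0.0351, limma), as it did without mutant array 1 (0.76, adjusted p = 0.0463). It did not pass with any other array left out.

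Egfl8 encodes a secreted protein with EGF-like domains, a relative of the endothelial gene Egfl7. It read 7.22, 7.09 and 7.37 in the controls and 7.83, 7.87 and 8.04 in the mutants, where the 3 values lay close together. Its log2 difference was 0.69 (standard error 0.11, 95% interval 0.43 to 0.94, adjusted p = 0.0271, limma). The fit without mutant array 1 kept the call (adjusted p = 0.0149). The fits without mutant array 2, mutant array 3, control array 1, control array 2 or control array 3 gave adjusted p = 0.0868, 0.0555, 0.0967, 0.15 and 0.0973, with differences from 0.62 to 0.76, and with the sex of the embryos as a covariate, read from Xist and Y-linked genes, adjusted p was 0.0743. In the RefSeq annotation Egfl8 overlaps Agpat1 and lies beside Ppt2. Their brightest probe sets differed by -0.0073 and 0.067 and neither passed. Egfl7 differed by 0.02 (adjusted p = 0.923, limma).

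Cdh19 encodes a cadherin that marks Schwann cell precursors. It read 6.53, 6.31 and 6.55 in the controls and 6.79, 7.01 and 7.48 in the mutants. The mutants were all above the controls but lay far apart, with an SD of 0.35 against 0.14. The log2 difference was 0.63 (standard error 0.18, adjusted p = 0.138, limma), with a 95% interval from 0.21 to 1.05. It was 0.78 without mutant array 1 (adjusted p = 0.0368), and Cdh19 did not pass with any other array left out.

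S100b encodes a calcium-binding protein of Schwann cells from the immature stage on, and it is also made by chondrocytes. It read 5.94, 6.02 and 5.88 in the controls and 6.18, 6.25 and 6.54 in the mutants. These values lie not far above the filter value of 5.17, in the range where the normalization compresses differences. The log2 difference was 0.37 (standard error 0.12, adjusted p = 0.166, limma), with a 95% interval from 0.10 to 0.65. A dimmer probe set, with a control mean of 5.08, gave 0.21 with overlapping groups.

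**Figure D2:**
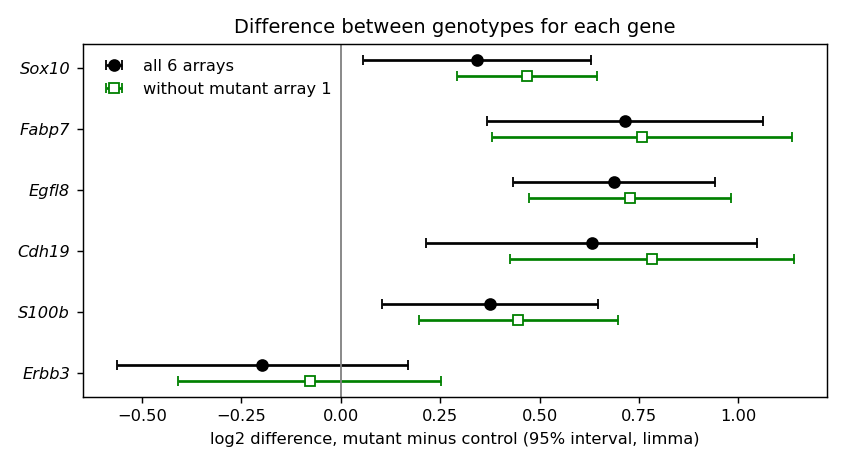
Log2 difference between mutants and controls for each gene with its 95% interval (limma), from all 6 arrays (black) and without mutant array 1 (green). The intervals of Sox10, Fabp7, Egfl8, Cdh19 and S100b lie above 0 in both, before any adjustment for the number of genes, and that of Erbb3 spans 0.

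The 3 mutants did not hold the genes in the same amounts. Mutant array 3 had the highest mutant value of Fabp7, Egfl8, Cdh19, S100b and Erbb3, and mutant array 2 that of Sox10. Mutant array 1 had the lowest mutant value of Sox10, Egfl8, Cdh19, S100b and Erbb3, and mutant array 2 that of Fabp7. With each gene set against its own control mean, the median over the 6 was between -0.06 and 0.02 on the control arrays and 0.28, 0.50 and 0.70 on mutant arrays 1, 2 and 3.

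RefSeq promoter sequences (GRCm38.p6) were at hand for 3 of the 6 genes, all among the 5 with separated groups, and the 250 bases before a start site in that table are printed here because these genes were higher together in the mutants. For Fabp7 and S100b that start is the outer start of the annotated gene. For Egfl8 it lies 591 bases inside the annotated gene span, so its window is within the gene. Capitals mark any match, on either strand, to the SOX core motifs ACAAAG and ACAATG, which Sox10 and its relatives bind, or to CAGAC, the core motif of SMAD proteins, which carry the TGF-beta signal to the nucleus.
Fabp7 (chr10:57784673-57784922, plus strand): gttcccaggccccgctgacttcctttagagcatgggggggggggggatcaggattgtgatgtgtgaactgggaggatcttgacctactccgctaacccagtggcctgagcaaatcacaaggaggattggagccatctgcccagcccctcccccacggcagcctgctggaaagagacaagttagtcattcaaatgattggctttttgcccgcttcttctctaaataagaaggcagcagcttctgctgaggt
Egfl8 (chr17:34615972-34616221, minus strand): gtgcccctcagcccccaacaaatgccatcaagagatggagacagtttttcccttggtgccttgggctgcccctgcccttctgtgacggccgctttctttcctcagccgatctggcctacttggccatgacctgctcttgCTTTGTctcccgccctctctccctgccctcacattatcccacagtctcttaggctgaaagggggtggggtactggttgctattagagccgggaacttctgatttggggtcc
S100b (chr10:76253586-76253835, plus strand): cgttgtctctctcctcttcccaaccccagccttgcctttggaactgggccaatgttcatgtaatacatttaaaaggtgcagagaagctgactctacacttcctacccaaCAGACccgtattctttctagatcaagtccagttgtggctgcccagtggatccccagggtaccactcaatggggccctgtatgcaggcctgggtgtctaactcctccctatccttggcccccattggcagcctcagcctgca
The Fabp7 window held no match. The Egfl8 window held ACAAAG on the opposite strand, read here as CTTTGT, from 111 bases before this inner start. The S100b window held CAGAC from 141 bases before the start. No matches overlapped. Of 32851 windows of this length in the table, 16.5% held ACAAAG, 10.7% held ACAATG and 42.2% held CAGAC. A match describes letters in the window and not a bound site.

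The rest of the lineage was read through 59 further genes in 4 lists, of which 56 had a single-gene probe set and 50 were tested. Of these 50, 1 rose (Egr2) and 1 fell (Moxd1), against 2.14% of all tested genes in either direction, and their median log2 difference was 0.04, beside 0.02 over all tested genes. The mutants were all above the controls for 14 of them and all below for 4, against 13.6% and 11.5% of all tested genes. Of the 50 differences 30 were positive and 20 negative, beside 53.4% positive over all tested genes. With the replicate number as a block, 6 passed: Dhh, Egr2 and Sox2 were higher, and Itga4, Moxd1 and Pmp22 were lower. Without control array 1, 2 or 3, none of the 50 passed, without mutant array 2 only Mal did, and without mutant array 3 only Dhh and Moxd1 did (limma).

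Among 19 tested genes of Schwann cell precursors and immature Schwann cells, 0 rose and 1 fell, and 8 had a positive and 11 a negative difference (median -0.13). Moxd1, which encodes a relative of dopamine beta-hydroxylase, read 9.31, 9.24 and 9.19 in the controls and 8.13, 8.48 and 8.54 in the mutants. It fell by 0.86 on the log2 scale (standard error 0.12, adjusted p = 0.0223, limma). The call was lost with the sex covariate (0.0613), without mutant array 2 (0.0644) and without control arrays 1, 2 and 3 (0.0833, 0.121 and 0.112). Dhh, the hedgehog ligand that Schwann cells send to the nerve sheath, read 6.41, 6.44 and 6.41 in the controls and 6.94, 7.01 and 7.48 in the mutants, with all mutants above a tight control group and a log2 difference of 0.72 (adjusted p = 0.0594, or 0.0436 with the replicate block). A dimmer Dhh probe set gave -0.03. Itga4, an integrin subunit of migrating crest cells and also of blood and muscle precursors, had the widest difference of the list, at -1.64 (standard error 0.38, adjusted p = 0.0891, or 0.00674 with the replicate block). Its other probe sets gave -1.87, -1.36 and -1.41, of which the second passed over all single-gene probe sets (adjusted p = 0.0308, limma), and the dimmest gave 0.18. The mean of the Itga4 probe sets differed by -1.22 and passed (adjusted p = 0.0337), and the gene passed without mutant array 1 (-1.21, adjusted p = 0.0417). Metrn, a secreted factor of glia, differed by 0.49 (adjusted p = 0.127). The precursor receptor Ngfr read 8.05, 9.21 and 8.83 in mutant arrays 1, 2 and 3. These values lay on both sides of the controls at 8.34 to 8.49. Ngfr differed by 0.29 and did not pass (adjusted p = 0.615, limma). It passed without mutant array 1 (adjusted p = 0.04), in a fit where 4.91% of all tested genes passed. Dimmer Ngfr probe sets went the other way, at -0.28 and -0.11, and neither passed. Averaging the Ngfr probe sets gave no call.

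Of the 14 transcription factors, 1 rose and 0 fell, and 5 had a positive and 0 a negative difference at an unadjusted p under 0.05. Egr2, the zinc finger factor that drives myelination and also an early response gene in several tissues, read 5.44, 5.53 and 5.57 in the controls and 6.23, 6.86 and 6.95 in the mutants. The groups were far apart, and the log2 difference was 1.16 (standard error 0.19, 2.24-fold, adjusted p = 0.0272, limma). A further Egr2 probe set gave 1.05. The call was lost with the sex covariate (adjusted p = 0.0519) and in 5 of the 6 fits with an array left out: adjusted p was 0.0968 and 0.0542 without mutant arrays 2 and 3, and 0.101, 0.141 and 0.14 without control arrays 1, 2 and 3. Because of its low level Egr2 was not tested with the lowest 50% of genes left out. Nab2, the corepressor that Egr2 binds, differed by 0.29 (adjusted p = 0.152). Sox2, which holds Schwann cells immature and is also made by the tongue epithelium, differed by 0.72 (adjusted p = 0.166, or 0.0322 with the replicate block), and its mutant order, with mutant array 1 highest at 11.14, was that of the epithelium markers. Id4 differed by 0.61 (adjusted p = 0.0927). A dimmer Id4 probe set differed by 0.64 and passed over all single-gene probe sets (adjusted p = 0.028, limma). The dimmest differed by 0.25 and did not pass, and the mean of the Id4 probe sets passed. The crest factors Foxd3, Tfap2a and Pax3 and the promyelinating factor Pou3f1 differed by 0.04, 0.05, 0.02 and 0.00067, none of them passing. A further Pou3f1 probe set, with a control mean of 7.02, differed by -0.55 with overlapping groups. It did not pass over all single-gene probe sets (adjusted p = 0.375, limma).

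No gene of the neuregulin route passed among 9 tested, and 0 had an unadjusted p under 0.05 (limma). Nrg1, the axonal ligand, differed by -0.07 with a 95% interval from -0.43 to 0.28. Erbb2, the signalling partner of ErbB3, read 8.29, 8.20 and 8.30 in the controls and 8.50, 8.38 and 8.46 in the mutants, a log2 difference of 0.18 (adjusted p = 0.344). Egfr, Grb2 and Bace1 differed by 0.25, -0.21 and -0.27. Nrg3 and Erbb4 lay under the filter in all arrays.

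Among 8 tested myelin genes none passed, although 5 had a positive and 1 a negative difference at an unadjusted p under 0.05 (limma), and their median was 0.37. Mal and Cnp, a proteolipid and an enzyme of myelin membranes, differed by 0.82 and 0.43 (adjusted p = 0.139 and 0.158). Pmp22, a myelin protein gene that fibroblasts and other cells also express, differed by -0.50 (adjusted p = 0.179, or 0.0487 with the replicate block). Mal is also an epithelial gene. Relative to the controls, the median of the myelin list was 0.53, 0.26 and 0.16 in mutant arrays 1, 2 and 3. This was the order of the epithelium medians, given below, and the reverse of that of the 6 Schwann lineage genes. A link between these orders was not tested.

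**Figure D3:**
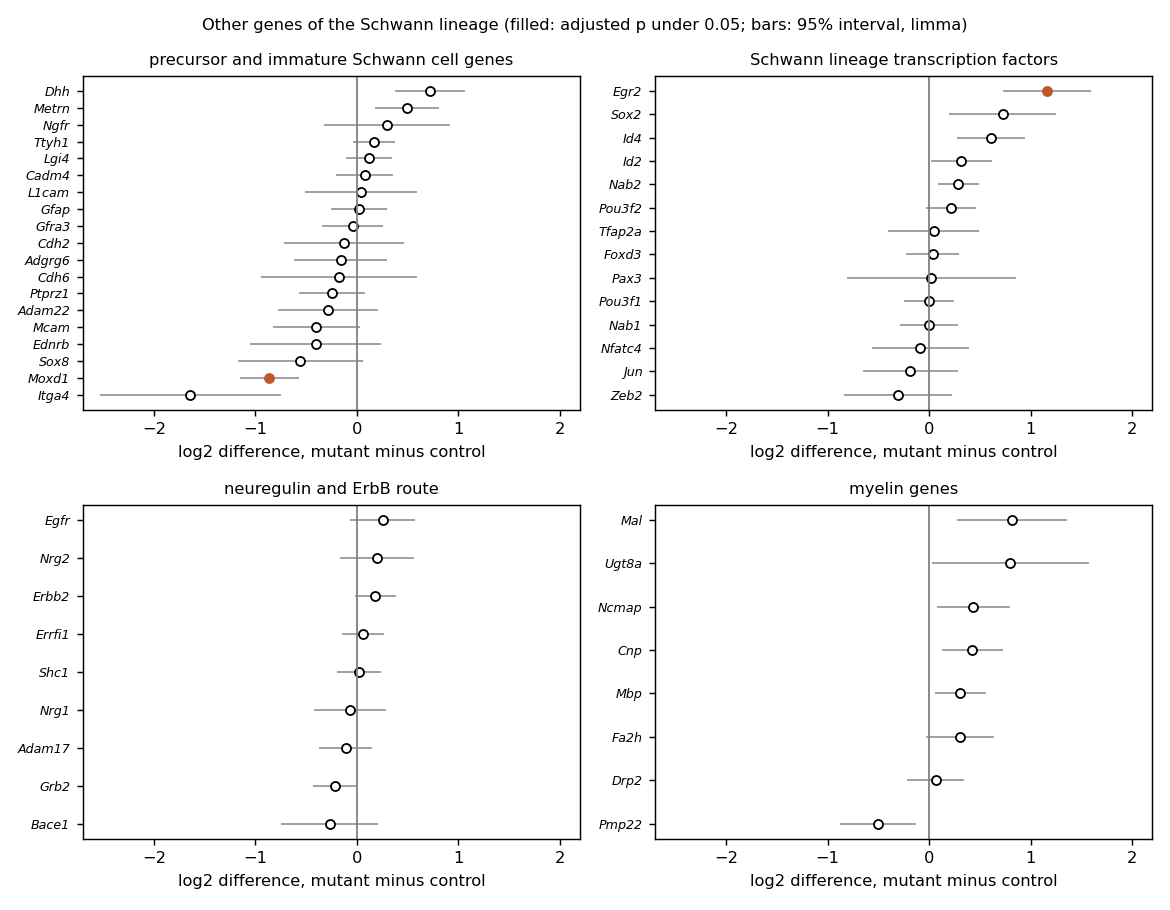
Log2 difference between mutants and controls (points) with 95% intervals (bars, limma) for the 50 tested genes of the 4 lineage lists. Filled points passed an adjusted p of 0.05: Moxd1 at -0.86 and Egr2 at 1.16.

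Myelin basic protein, Mbp, was read by 8 probe sets that differed by unequal amounts, and they are described here after their values were seen. The brightest, which stood for the gene, read 7.89, 7.85 and 7.82 in the controls and 8.34, 8.13 and 8.00 in the mutants, a log2 difference of 0.31 (adjusted p = 0.216, limma). A dimmer probe set read 5.32, 5.55 and 5.62 in the controls and 6.86, 6.95 and 8.03 in the mutants. It differed by 1.78 (adjusted p = 0.0384 over 34945 single-gene probe sets, limma). Another, at 4.70, 4.47 and 5.24 in the controls and 6.28, 6.32 and 7.12 in the mutants, differed by 1.77 (adjusted p = 0.0327). All 8 differences were positive, from 0.11 to 1.78, and 6 probe sets had all mutants above all controls. The 8 read the same gene in the same 6 samples, so they do not count as separate results. No share of separated or positive probe sets over the whole array was computed. In the brightest, mutant array 1 was the highest mutant, and in both probe sets with the wide differences mutant array 3 was. The mean of the 8 differed by 0.81 and passed (adjusted p = 0.0276). Mag, the gene of myelin-associated glycoprotein, lay under the filter. It read 4.95, 4.87 and 4.83 in the controls and 5.26, 5.26 and 5.70 in the mutants, again with mutant array 3 highest.

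**Figure D4:**
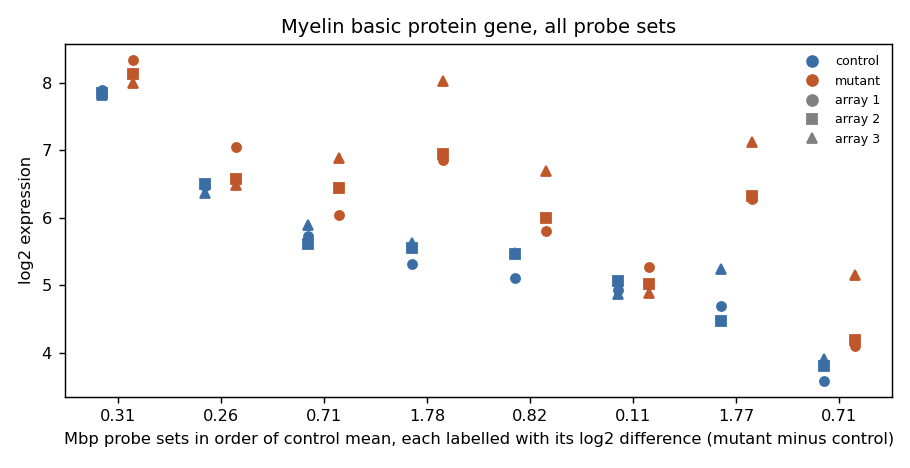
Log2 expression of the 8 Mbp probe sets on each array (blue: control, orange: mutant, marker shape: array number), ordered by control mean and labelled with the log2 difference. The gap between genotypes ranges from 0.11 to 1.78, and mutant array 3 is highest where the gap is widest.

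Neuron and axon markers were followed because Schwann cells depend on axons. Of 13 tested, 1 rose and 0 fell, 10 differences were positive, and the median was 0.22. Stmn2, a tubulin-binding protein of growing axons, rose by 1.07 (adjusted p = 0.0272, limma), and the neurofilament gene Nefl differed by 1.27 (adjusted p = 0.0599, or 0.0317 with the replicate block). A dimmer Stmn2 probe set differed by 0.76 with overlapping groups and did not pass (adjusted p = 0.222, limma). A dimmer Nefl probe set differed by 1.47 and passed over all single-gene probe sets (adjusted p = 0.0393, limma). The widest differences in the list, named after their values were seen, ran in opposite directions. Dcx, a microtubule protein of young neurons, read 10.38, 10.92 and 10.85 in the controls and 8.73, 9.53 and 9.87 in the mutants, all of them below the controls. It differed by -1.34 (adjusted p = 0.0736, or 0.00887 with the replicate block), its 4 probe sets gave -0.92 to -1.42, and 1 of them passed over all single-gene probe sets (adjusted p = 0.0249, limma). Nefm, a further neurofilament gene, differed by 1.32 (adjusted p = 0.0674). The control values of Nefl were 9.12, 8.00 and 8.27, so control array 1 lay nearest the mutants at 9.70, 9.70 and 9.80. Per array, the list's median relative to the controls was 0.19, 0.69 and 0.50 in mutant arrays 1, 2 and 3. The log2 of the summed level of the list was 12.12 to 12.17 in the controls and 12.03 to 12.40 in the mutants. This sum is weighted to bright genes. Dcx, with its difference of -1.34, was the brightest of the list in the controls (mean 10.71), so the sum does not follow the other genes evenly. The part of the list in the Schwann gene values was not tested.

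Other cell types that share a gene with the Schwann lineage were read the same way. Melanocytes also express Sox10: their pigment genes Dct, Tyr, Tyrp1 and Mlana lay under the filter on average, between 3.64 and 5.31 in all arrays, 0 of the 4 tested melanocyte markers passed, 0 had an unadjusted p under 0.05 (limma), and the summed level was 9.15 to 9.20 in the controls and 9.17 to 9.40 in the mutants. The melanocyte sum is weighted to its brightest tested gene, Kit (control mean 8.43). Cartilage markers, which bear on S100b, differed in both directions. Of 8 tested, Cnmd rose by 1.61 and Col9a1 by 0.87 (adjusted p = 0.0272 and 0.0283, limma), and 5 differences were negative. Among these, named after their values were seen, Col11a1 and Col2a1 were lower in every mutant than in any control, with differences of -1.24 (adjusted p = 0.069, or 0.0116 with the replicate block) and -0.52 (adjusted p = 0.34). Matn1 and Hapln1 lay under the filter, and the summed level was 10.91 to 11.06 in the controls and 10.68 to 11.12 in the mutants. All 13 epithelium markers, which bear on Erbb3 and Sox2, had a positive difference, with a median of 0.69. The desmosome gene Pkp1 rose by 0.78 (adjusted p = 0.0429), a call lost with the replicate block (0.0556), and Krt15 differed by 0.56 (adjusted p = 0.0595). The summed epithelium level was 14.09 to 14.20 in the controls and 14.46 to 15.12 in the mutants. Salivary gland markers were thin: 2 of 7 were tested, Elf5 differed by 0.92 (adjusted p = 0.303, or 0.0294 with the replicate block) and Bhlha15 by 0.10, Aqp5, Smgc, Bpifa2 and Dcpp1 lay under the filter, and the summed level was 7.38 to 8.03 in the controls and 7.91 to 9.22 in the mutants. The part of these cells in the Schwann gene values was not tested.

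The defining markers of skeletal muscle, the bulk of a tongue, were present, and 9 of 10 had a negative difference, with medians per array of -0.90, -0.24 and -0.09 in mutant arrays 1, 2 and 3. Actn3 fell by 1.68 (adjusted p = 0.0105, limma), and Des differed by -0.69 (adjusted p = 0.155, or 0.0438 with the replicate block). The epithelium medians per array were 1.03, 0.61 and 0.27. Mutant array 1, which had the highest epithelium and the lowest muscle median, had the lowest median of the Schwann lineage genes among the mutants (0.28). Mutant array 3 had the lowest epithelium median among the mutants and the highest Schwann median (0.70). This order did not hold for every gene: among the mutants, Fabp7 was lowest and Sox10 highest in mutant array 2. A link between these orders was not tested. Mesenchyme markers had a median of -0.19 (Dcn rose by 0.65, and Col1a2 differed by -0.57), endothelium markers -0.38 with 0 called and 1 lower at an unadjusted p under 0.05 (limma; Cldn5 at -0.68 and Esam at -0.38), and macrophage markers 0.54, with C1qa, C1qb and C1qc higher by 1.05, 0.87 and 0.71. Of the 9 marker genes called here and in the lists above (Stmn2, Cnmd, Col9a1, Pkp1, Actn3, Dcn, C1qa, C1qb and C1qc), 0 passed without mutant array 2, control array 2 or control array 3, and 9 passed without mutant array 1 (limma).

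**Figure D5:**
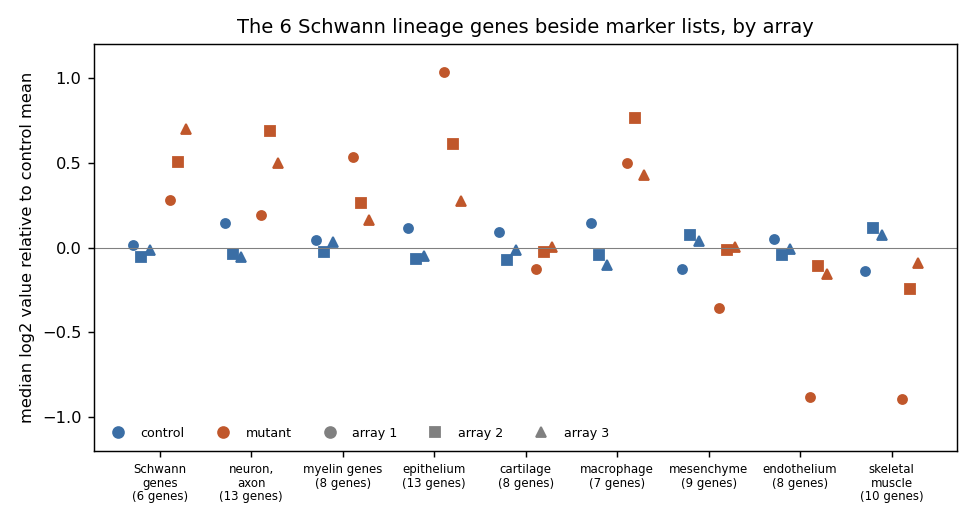
Median log2 value of the 6 Schwann lineage genes and of 8 lists of other genes on each array, with each gene set against its control mean (blue: control, orange: mutant, marker shape: array number). The 6 genes are highest in mutant array 3 (0.70), the epithelium list is highest in mutant array 1 (1.03), and the muscle and endothelium lists are lowest in mutant array 1.

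The tested genes whose values over the 6 arrays were most like the mean of the 6 genes were Wnk4, Gpm6b, Deaf1, Zfp385b and Cd99l2, with Pearson correlations of 0.998, 0.998, 0.996, 0.99 and 0.989 (given as a description over 6 arrays, which share the genotype contrast). Gpm6b, a membrane proteolipid of neurons and glia, read 9.20, 9.06 and 9.12 in the controls and 9.37, 9.51 and 9.86 in the mutants, and differed by 0.45 (adjusted p = 0.157, limma). Wnk4, a kinase gene, differed by 0.61 (adjusted p = 0.0924) and Zfp385b, a zinc finger gene, by 0.46, while Deaf1 and Cd99l2 differed by 0.08 and 0.10. None of the 5 passed. Over all tested genes, 43 correlated with the mean at over 0.95.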

How the data were processed

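Total RNA of embryonic tongue was labelled with biotin and measured on 6 arrays, per the labels' protocols. The authors deposited log2 values made with RMA (background correction, quantile normalization, probe set summary), per the submitters' processing notes, where no version is named. This method shrinks the differences of dim probe sets and would hide a change shared by most genes. Arrays have no read depth, so their number limits the precision.

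Of 45101 probe sets, 34945 have a single gene symbol in the platform annotation. A gene was read by its brightest probe set (by the mean of the 6 arrays), and genes in the lowest 25% (under 5.17) were left out, which left 13645. The genotypes were tested with limma 3.58.1 (R 4.3.3; lmFit and eBayes, two-sided) with Benjamini-Hochberg adjustment over all tested genes and a threshold of 0.05. Other probe sets come from a fit of all single-gene probe sets. The script was tested on simulated data. Figures were drawn with matplotlib 3.10.9.

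Arrays are numbered 1 to 3 in both groups, and the deviations from the group mean of arrays that share a number had correlations of 0.309, 0.105 and 0.206. Each is over 0.1, so the title numbers were treated as pairs, but the pairing is weak: mutant array 2 correlated more with control array 3 (0.196), and control array 2 more with mutant array 3 (0.147), than with each other, and the labels do not say what the numbers stand for. By Xist and Y-linked genes, mutant array 2 and control arrays 2 and 3 read as male. Mutant arrays 1 and 3 and control array 1 read as female. Sex was thus unbalanced between the genotypes, and the pair numbered 3 joins a female mutant to a male control. The main fit has no block, and block values stand beside results whose call they change.

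The genes and lists were chosen with earlier results of these data known. Named are the 6 genes, Tgfbr2, called genes of each list with up to 4 (lineage lists) or 2 (marker lists) of the smallest p, and the 5 genes most alike in pattern; any other gene was named after seeing its values. Alternatives tried were no filter, the lowest 50% left out, means of probe sets, every probe set on its own, median centring, further quantile normalization, trend and robust fitting, array weights, the block, sex as a covariate, and each array left out.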

Additional observations from a re-analysis of the deposited data

How the results depend on the processing

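Over 16 alternatives, the sign of the log2 difference held for each of the 6 Schwann lineage genes wherever it was tested (Cdh19 and S100b were not tested with the lowest 50% left out), with ranges of 0.15 to 0.47 for Sox10, 0.57 to 0.82 for Fabp7, 0.62 to 0.76 for Egfl8, 0.44 to 0.79 for Cdh19, 0.27 to 0.45 for S100b and -0.38 to -0.05 for Erbb3. The calls did not hold in the same way. Of the 6, 2 passed with means of probe sets, with further quantile normalization and with the replicate block. With array quality weights 5 passed (mutant array 1 had a weight of 0.155), and with the sex covariate 0 did. Without mutant array 1, 4 of the 6 passed, and 0 passed with any other array left out. The share of all tested genes that passed was 4.91% without mutant array 1 and 2.14% in the main fit. It was 2.39% with means of probe sets, 2.1% with further quantile normalization and 3.59% with the replicate block. With array quality weights it was 7.58%, with the sex covariate 0.989% and with the lowest 50% left out 1.66%. With an array other than mutant array 1 left out, the share was 0.117% to 1.77%. The genes called over the whole table were 151 with the lowest 50% left out, 1034 with array quality weights, 490 with the replicate block, 135 with the sex covariate and 16 to 670 with an array left out. Of the 50 lineage list genes, 1, 5, 8, 6 and 0 passed with the lowest 50% left out, means of probe sets, array quality weights, the replicate block and the sex covariate, and 0 to 6 with an array left out. Fewer than 50 were tested with the lowest 50% left out: Egr2, Nrg1 and Pou3f1 were among those dropped. With array quality weights Sox10 (0.44), Fabp7 (0.81), Cdh19 (0.79) and S100b (0.42) passed. Fabp7 also passed with means of probe sets (0.72), further quantile normalization (0.75) and the replicate block (0.72), and Egfl8 did not pass with the sex covariate (0.68). With an array left out the differences were 0.26 to 0.47 for Sox10, 0.57 to 0.82 for Fabp7, 0.62 to 0.76 for Egfl8 and 0.44 to 0.78 for Cdh19. Signs turned for Tgfbr2 without mutant array 1 (0.014; -0.30 to 0.014 with an array left out), Kit with means of probe sets (-0.040) and Bhlha15 with array quality weights (-0.014). The cause of these changes was not tested, apart from the fewer genes or arrays that an alternative leaves. Over the genes named by the rule and 13 named outside it, the replicate block changed no call beyond those given beside the results. Probe sets near the filter value, such as those of S100b, Egr2 and Mag, limit how far the sizes of their differences can be read.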
